A study of Rattus norvegicus with 12 samples.

Results

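The myosin motor and its partners in the cardiac thick filament were followed as 9 genes in the right and left ventricles (RV and LV) of rats kept in normoxia or hypoxia. The genes were the heavy chains Myh6, Myh7 and Myh7b, the light chains Myl2, Myl3, Myl4 and Myl7, and the myosin-binding proteins Mybpc3 and Mybphl. They were taken by symbol from the 23526 genes with a symbol in the deposited table, and 9 of 9 were found. All 9 passed the expression filter that left 13756 genes for testing, so no member was dropped.

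RNA was sequenced from the RV and the LV of 6 male Sprague-Dawley rats aged 3 to 4 months, which gave 12 libraries of polyadenylated RNA. The RVH and LVH groups came from 3 rats (numbered 1, 2 and 4) held for 2 weeks at 10% O2 in a hypobaric chamber, and the RVN and LVN groups came from 3 rats (numbered 1, 2 and 3) held in room air for the same time. No group carried an engineered allele, a drug or a graft. Both ventricles of a heart were sequenced, with 3 libraries in each of the 4 groups, and a number in one exposure names a different rat from the same number in the other. The atria had been cut away and the free walls were lysed whole, so every library holds the RNA of all cell types of the wall, and fewer cells of a type and less RNA per cell cannot be told apart.

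A sarcomeric myosin molecule is built of heavy chains that carry the motor, each with an essential and a regulatory light chain wrapped around its neck. Adult rat ventricle mainly uses the fast alpha heavy chain (Myh6), whereas the fetal ventricle uses the slower beta chain (Myh7), and a return towards Myh7 under load or low thyroid hormone is among the best known features of rodent cardiac hypertrophy. Myl2 and Myl3 are the ventricular regulatory and essential light chains, Myl7 and Myl4 are their atrial counterparts, and Myl4 is also present in the fetal ventricle. Mybpc3 is the cardiac myosin-binding protein C, and Mybphl is a related protein found mainly in atria and the conduction system.

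Each of the 3 heavy chain genes also carries a microRNA within its span, and their mature sequences are shown because their seeds are nearly the same. The sequences come from RefSeq (assembly GRCr8) and are shown 5′ to 3′ with the seed, bases 2 to 8, in capitals.
rno-miR-208a-3p (within Myh6, chr15:32395568-32395585, minus strand): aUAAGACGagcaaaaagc
rno-miR-208b-3p (within Myh7, chr15:32421648-32421665, minus strand): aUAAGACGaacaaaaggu
rno-miR-499-5p (within Myh7b, chr3:164570616-164570636, plus strand): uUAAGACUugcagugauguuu
The seeds of miR-208a and miR-208b were identical at 7 of 7 bases, and that of miR-499 matched both at 6 of 7. The microRNAs themselves were not measured in these libraries, and the values below are those of the host transcripts.

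Library totals of estimated counts lay between 21458174 and 39972399, with between 15764 and 16869 genes above 0. Levels are given as TPM (kallisto's transcript abundance, scaled to a fixed total and corrected for transcript length), and the 9 genes together made up 1.47% to 2.03% of a library. The quasi-likelihood test of edgeR was fitted to the 13756 genes, with p-values adjusted by the Benjamini-Hochberg method. Fold changes are log2 values with their standard error (SE), and a gene was called at an adjusted p under 0.05. These fold changes use TMM scaling between libraries. Scaling by library totals shifted the median of all genes by 0.12 to 0.19 in the comparisons of groups, against 0.01 or less with TMM. As a check of the tissue label, the ventricular Myl2 was at 4649 to 7005 TPM in every library. Irx4, a ventricular transcription factor, was at 1.84 to 6.39 TPM in the normoxic libraries and 10.4 to 16.5 TPM in the hypoxic ones.

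The order of the 9 genes by mean TPM over the 12 libraries was Myl3 (7855), Myl2 (5697), Myh6 (1560), Myh7 (1145), Mybpc3 (671), Myl4 (34.6), Myl7 (22.6), Myh7b (10.7) and Mybphl (0.643). The ventricular light chains were thus the most abundant members, and they ranked 16 and 18 among all genes. Their ranges lay far above those of the atrial light chains in each library. Most neighbours in this order overlapped in their ranges over the libraries, among them Myh6 (585 to 2837 TPM) and Myh7 (247 to 2778 TPM). The ranges were separate only between Myl2 and Myh6, between Mybpc3 and Myl4, and between Myh7b and Mybphl.

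Myh6, the adult alpha heavy chain, was the 1 member called in any comparison, and it fell in the hypoxic RV. Its levels were 2402, 2451 and 1679 TPM in RVN and 879, 585 and 1111 TPM in RVH, so the groups did not overlap. The mean went from 2177 ± 432 to 858 ± 263 TPM (SD, n = 3 each). The log2 fold change was -1.43 ± 0.38 (SE), a 2.69-fold lower level, with an adjusted p of 0.0301 by edgeR's quasi-likelihood test. Of the 9 members, 1 was called in this comparison, against 15% of all genes tested in either direction and 7.60% called lower, so the count of calls is near the background. The call was lost (adjusted p between 0.0519 and 0.115 by the same test) when RVN replicate 1, 2 or 3 or RVH replicate 1 or 2 was left out, while the fold change stayed between -1.76 and -1.16 across these and the fit without RVH replicate 4.

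In the LV the same gene was at 1307, 2837 and 1409 TPM in LVN and at 1448, 772 and 1839 TPM in LVH. These groups overlapped, with LVN replicate 2 the highest library of the series and LVH replicate 2 the lowest of the LV. The log2 fold change was -0.63 ± 0.37 (SE) with an adjusted p of 0.399 by edgeR's quasi-likelihood test. The hypoxia effect on Myh6 in the RV minus that in the LV was -0.79 ± 0.52 (SE) and was not called, so a difference between the ventricles in this response was not shown.

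Myh7, the fetal beta heavy chain, was lower in the RV than in the LV of the same heart in 6 of 6 hearts, with TMM scaling and by TPM alike. In normoxia its levels were 663, 247 and 817 TPM in RVN and 1108, 919 and 1151 TPM in LVN. In hypoxia they were 876, 1198 and 869 TPM in RVH and 1568, 1546 and 2778 TPM in LVH. The ventricles did not overlap in either exposure. Across all genes tested, 6.97% were lower in the RV in 6 of 6 hearts.

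The fold change of Myh7 was -1.06 ± 0.37 (SE) for RVN against LVN and -1.16 ± 0.37 (SE) for RVH against LVH, and neither was called (adjusted p of 0.419 and 0.156 by edgeR's quasi-likelihood test). None of the 9 members was called in RVN against LVN, where 0.0218% of all genes were called, and 1 had an unadjusted p under 0.05. None of the 9 was called in RVH against LVH, where 0.451% of all genes were called, and 5 had an unadjusted p under 0.05. DESeq2 called 2 of them in RVH against LVH, Myh7 (adjusted p of 0.0282) and Mybpc3 (adjusted p of 0.0466), and 0 in RVN against LVN. The shares of all genes given here are those of edgeR's quasi-likelihood test, so the DESeq2 calls have no background beside them. With hypoxia Myh7 was higher by 0.64 ± 0.37 (SE) in the RV and by 0.74 ± 0.37 (SE) in the LV, and neither difference was called (adjusted p of 0.261 and 0.323). In the LV the 3 hypoxic libraries lay above the 3 normoxic ones, and in the RV the groups overlapped.

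The share of Myh7 in the sum of Myh7 and Myh6 compares the chains within a library and does not depend on the scaling between libraries. It was 21.6%, 9.14% and 32.7% in RVN and 45.9%, 24.5% and 45% in LVN. It was 49.9%, 67.2% and 43.9% in RVH and 52.0%, 66.7% and 60.2% in LVH. All hypoxic RV libraries were above all normoxic ones, and the same held in the LV. Myh6 was thus the more abundant chain in the 6 normoxic libraries, whereas Myh7 was the more abundant in 4 of the 6 hypoxic libraries, the exceptions being RVH replicates 1 and 4.

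The mean share was 21.2 ± 11.8% in RVN, 38.4 ± 12.1% in LVN, 53.7 ± 12.1% in RVH and 59.6 ± 7.36% in LVH (SD, n = 3 each). It was higher with hypoxia by 32.5 percentage points in the RV and by 21.2 percentage points in the LV, each with p = 0.1 by a two-sided exact permutation test, which is the smallest p that 3 libraries against 3 allow. The RV was lower than the LV by 17.3 percentage points in normoxia (p = 0.200 by the same exact test). In hypoxia it was lower by 5.95 percentage points (p = 0.500 by the same exact test). That test does not use the pairing of ventricles within hearts. The RV minus LV differences of single hearts were -24.3, -15.3 and -12.2 percentage points in normoxia. In hypoxia they were -2.09, 0.506 and -16.3 percentage points. Within hearts the RV was lower in 5 of 6, with a mean difference of -11.6 percentage points (p = 0.0625 by a two-sided exact permutation test that flips the signs of the 6 differences, smallest possible p = 0.0312). Over the 15 share tests made, no adjusted p was under 0.300.

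No counting interval is given for a share, since the estimated counts are rescaled TPM values and not reads. Myh6 and Myh7 are near-identical neighbours on the chromosome, and how short single reads that fit both were divided between them was decided by the quantification, so part of each level is uncertain.

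**Figure D1:**
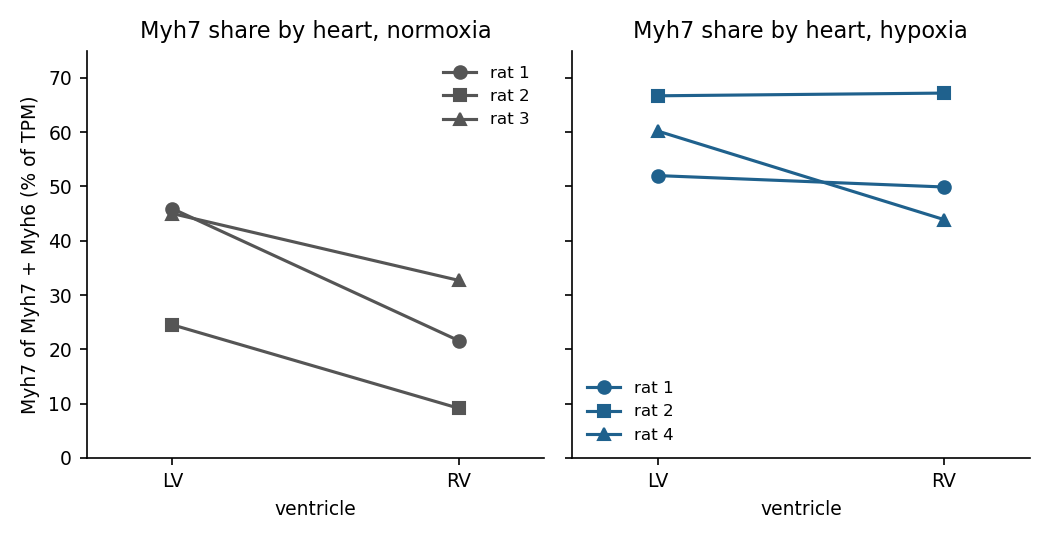
Share of Myh7 in the TPM of Myh7 plus Myh6 (%) in the LV and the RV, each line joining the ventricles of 1 heart, for 3 normoxic and 3 hypoxic rats. The line goes down from LV to RV in 5 of 6 hearts, and the hypoxic hearts lie at 43.9% to 67.2% against 9.14% to 45.9% in normoxia.

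Myh7b, a slow-type heavy chain gene of low abundance, was at 11, 13.3 and 13.4 TPM in RVN and 6.52, 7.98 and 8.86 TPM in RVH. These groups did not overlap, but the fold change of -0.80 ± 0.27 (SE) was not called (adjusted p of 0.0657 by edgeR's quasi-likelihood test). In the LV its levels were 9.53, 13.8 and 6.69 TPM in LVN and 10.5, 11.5 and 15.1 TPM in LVH, which overlapped. The hypoxia effect in the RV minus that in the LV was -0.96 ± 0.37 (SE), with an unadjusted p of 0.0255. By edgeR's quasi-likelihood test 0 of the 9 members were called for such a difference (0% of all genes), and 2 had an unadjusted p under 0.05. The RVH libraries thus lay below the RVN libraries for Myh7b and for Myh6, and not for Myh7. Over the 12 libraries its level followed that of Myh6 (Pearson r = 0.70) more than that of Myh7 (r = 0.10). This describes libraries that share the same 4 groups, and the value for Myh6 was 0.52 without LVN replicate 2 and RVH replicate 2. In each library it made up 0.261% to 0.535% of the TPM of the 3 heavy chains.

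The ventricular light chains varied little. Myl2, the regulatory chain, was at 5240, 4649 and 5203 TPM in RVN, 4807, 5415 and 6104 TPM in LVN, 5753, 6381 and 5761 TPM in RVH, and 5938, 7005 and 6114 TPM in LVH. Myl3, the essential chain, was at 8142, 7870 and 8368 TPM in RVN, 7184, 8178 and 8570 TPM in LVN, 6708, 7011 and 7426 TPM in RVH, and 8194, 8020 and 8587 TPM in LVH. The RVH libraries were the lowest for Myl3 apart from LVN replicate 1, and did not overlap with RVN.

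For RVH against RVN the fold change of Myl3 was -0.31 ± 0.13 (SE) and that of Myl2 was 0.13 ± 0.16 (SE), and neither was called (adjusted p of 0.128 and 0.617 by edgeR's quasi-likelihood test). With TMM scaling Myl2, Myl3 and Mybpc3, like Myh7, were lower in the RV in 6 of 6 hearts, but by TPM Myl2 and Myl3 were lower in 5 of 6 hearts and Mybpc3 in 3 of 6, so that these directions depend on the scaling. Under library totals the fold change of Myl3 for RVN against LVN turned from -0.15 to 0.03.

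The ratio of Myl2 to Myl3 within a library is free of that scaling. It was 0.644, 0.591 and 0.622 in RVN and 0.858, 0.910 and 0.776 in RVH, with no overlap. In the LV it was 0.669, 0.662 and 0.712 in LVN and 0.725, 0.873 and 0.712 in LVH, where the lowest hypoxic library was level with the highest normoxic one. The ratio of Myh6 plus Myh7 to Myl2 moved the other way in the RV, from 0.585, 0.580 and 0.480 in RVN to 0.305, 0.279 and 0.344 in RVH. The LV libraries overlapped for that ratio, at 0.503, 0.694 and 0.419 in LVN and 0.508, 0.331 and 0.755 in LVH. The sum of both heavy chains was 2753 ± 288 TPM in RVN, 2911 ± 736 TPM in LVN, 1839 ± 123 TPM in RVH and 3317 ± 1178 TPM in LVH (SD, n = 3 each). The ratios were chosen as descriptions and were not tested.

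**Figure D2:**
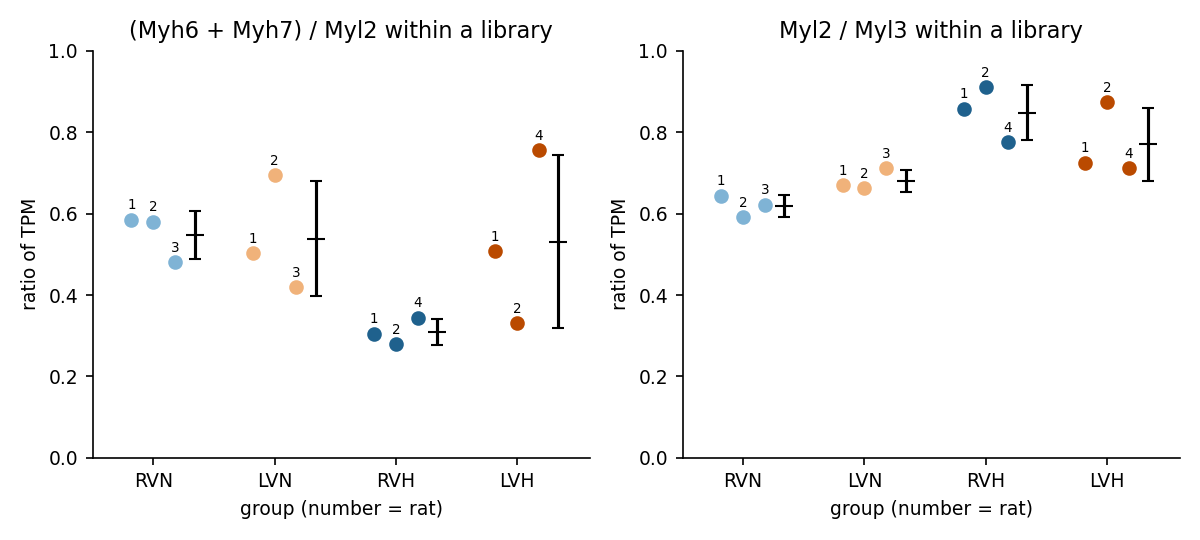
Ratio of TPM within each library, for the summed heavy chains over Myl2 and for Myl2 over Myl3, by group with the rat number beside each point and the mean ± SD (n = 3) as a black bar. RVH libraries lie at 0.279 to 0.344 for the first ratio, below all RVN and LVN libraries, and at 0.776 to 0.910 for the second, above all RVN and LVN libraries.

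Mybpc3, which regulates the motor from the thick filament backbone, was at 721, 619 and 678 TPM in RVN and 493, 623 and 624 TPM in RVH. In the LV it was at 664, 760 and 648 TPM in LVN and 719, 613 and 890 TPM in LVH. The groups overlapped in both ventricles, and neither change with hypoxia was called (adjusted p of 0.179 and 0.890 by edgeR's quasi-likelihood test). Relative to Myh6 plus Myh7, its ratio of TPM was 0.230 to 0.272 in RVN and 0.281 to 0.349 in RVH.

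Among the atrial isoforms, Myl4, the atrial and fetal essential light chain, was low and even in the normoxic RV. It was at 3.43, 3.50 and 3.29 TPM in RVN and at 4.16, 14.6 and 6.48 TPM in LVN. In hypoxia it was at 24.6, 33.2 and 11.3 TPM in RVH and at 273, 14.1 and 24 TPM in LVH. All RVH libraries were above all RVN libraries, and the fold change of 2.61 ± 0.93 (SE) had an adjusted p of 0.0824 and was not called by edgeR's quasi-likelihood test, whereas DESeq2 called it (adjusted p of 0.0302). The adjusted p of this change ranged from 0.00977 to 0.213 over 16 alternatives.

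Other atrial markers did not move as a group in RVH against RVN, where 2 of 10 tested were called higher and 2 lower, beside 15% of all genes. Nppa, which is also a gene of the fetal ventricle, rose by 5.13 ± 0.46 (SE), from 27.6 to 43.6 TPM in RVN to 919 to 1927 TPM in RVH. Pam, which amidates peptides, rose by 0.79 ± 0.12 (SE). The kinase gene Sbk2 fell by 2.80 ± 0.83 (SE) and the potassium channel gene Kcnj3 by 1.04 ± 0.28 (SE) on the log2 scale. Sbk2 was close to the floor, at 0.417 to 0.652 TPM in RVN and 0.0346 to 0.155 TPM in RVH. Sln, which was not called, was at 38.0 to 207 TPM in RVN and 5.19 to 16.9 TPM in RVH.

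In the LV the fold change of Myl4 was 3.30 ± 0.91 (SE) with an adjusted p of 0.106, and 0 of the 9 members were called in LVH against LVN, where 1.37% of all genes were called and 3 members had an unadjusted p under 0.05. DESeq2, for which no share of all genes is given here, called 1 member there, Myl4. The size of that change rested on LVH replicate 1, since it was 1.11 without that library. The share of Myl4 in the sum of Myl4 and Myl3 was 0.0393% to 0.0445% in RVN, 0.0579% to 0.179% in LVN and 0.152% to 0.472% in RVH. In LVH it was 0.176% and 0.278% in replicates 2 and 4 and 3.22% in replicate 1. The RVH minus RVN difference was 0.288 percentage points (p = 0.1 by a two-sided exact permutation test, the smallest possible).

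Myl7, the atrial regulatory light chain, was more uneven than any of the ventricular members. It was at 0.464, 24.4 and 26.1 TPM in RVN, 2.88, 7.12 and 6.03 TPM in LVN, 4.57, 18.7 and 2.95 TPM in RVH, and 165, 4.11 and 9.27 TPM in LVH. Libraries within the RVN group differed by 56.1-fold, and the lowest of them rested on 11.8 estimated counts. No comparison of groups was called. Myl7 was a small part of the regulatory light chains, at 0.00886% to 0.522% of Myl7 plus Myl2 in 11 libraries and 2.70% in LVH replicate 1.

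Mybphl was the least abundant member, at 0.504, 0.209 and 0.236 TPM in RVN, 0.131, 0.0821 and 0.0921 TPM in LVN, 0.188, 0.480 and 0.541 TPM in RVH, and 5.11, 0.123 and 0.0188 TPM in LVH. Outside LVH replicate 1 these levels correspond to between 0.455 and 13.1 estimated counts, so differences among those libraries were hardly detectable at this depth. The normoxic groups did not overlap, and the fold change for RVN against LVN was 1.43 ± 1.53 (SE). Its direction in hypoxia depended on 1 library, as the fold change for RVH against LVH was -2.04 ± 1.23 (SE) with LVH replicate 1 and 2.36 without it.

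LVH replicate 1 stood apart from its group in all 3 atrial members together. Relative to the mean TPM of LVH replicates 2 and 4, Myl4 was 14.3-fold, Myl7 24.6-fold and Mybphl 72.4-fold higher in it. Ordered by the excess over the mean log2 level of the other LVH libraries, Mybphl was at rank 8, Myl7 at rank 15 and Myl4 at rank 38 of 13756 genes. Sln, the sarcolipin gene that is strongly atrial in rodents, was at rank 2, with 86.8 TPM against 0.808 and 0.427 TPM. This library had the highest level of its group for 10 of 12 other atrial markers by TPM. The exceptions were the natriuretic peptide gene Nppa, at 1781 TPM against 3513 and 1839 TPM, and the potassium channel gene Kcna5. By the scaled log2 level, 6 of the 10 tested markers exceeded the mean of the other LVH libraries. Bmp10, a marker of right atrial myocytes, was at 0.0399 TPM or less in every library.

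The same library was also the highest of its group for 8 of 8 macrophage, 7 of 7 fibroblast and 8 of 8 smooth muscle and pericyte markers. Their summed levels in it were 159 TPM (macrophage), 1322 TPM (fibroblast) and 647 TPM (smooth muscle and pericyte), against 59.0 to 84.6 TPM, 640 to 768 TPM and 264 to 373 TPM in the other LVH libraries. In this library Myl2 was at 5938 TPM (7005 and 6114 TPM in the other LVH libraries), Myl3 at 8194 TPM, Myh6 at 1448 TPM and Myh7 at 1568 TPM. Relative to the mean scaled log2 level of the other LVH libraries, Myh7 was at -0.72 and Myh7b at -0.65. Myl2 was at -0.46, Mybpc3 at -0.36, Myl3 at -0.34 and Myh6 at -0.04 on the same scale. The Myh7 share of LVH was 63.4% without this library against 59.6% with it. The part of atrial or other tissue in these levels was not tested.

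Without LVH replicate 1 the fold change for RVH against LVH turned from -2.18 to 0.03 for Myl4 and from -2.77 to 0.13 for Myl7. None of these values was called. Myl4 in the remaining LVH libraries had a mean of 19 TPM, and in RVH it was 23.1 ± 11 TPM (SD, n = 3).

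A different pattern was seen in RVN replicates 2 and 3. Their Myl7 levels of 24.4 and 26.1 TPM came with Sln at 207 and 145 TPM, against 38.0 TPM in RVN replicate 1, while Myl4 was at 3.50 and 3.29 TPM against 3.43 TPM and Mybphl at 0.209 and 0.236 TPM against 0.504 TPM. The ratio of Myl4 to Myl7 was 0.144 and 0.126 in these libraries, against 1.66 in LVH replicate 1 and 1.07 to 7.38 in the others. The other atrial markers did not follow Sln as a sum. Without Nppa, Pam and Sln, the remaining 9 summed to 29, 28.3 and 27.2 TPM in RVN replicates 1, 2 and 3, and to 28.9 TPM in LVH replicate 1 against 13.4 and 22.3 TPM in LVH replicates 2 and 4. Myl7 and Myl4 thus separated in the normoxic RV, and were high together in LVH replicate 1.

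**Figure D3:**
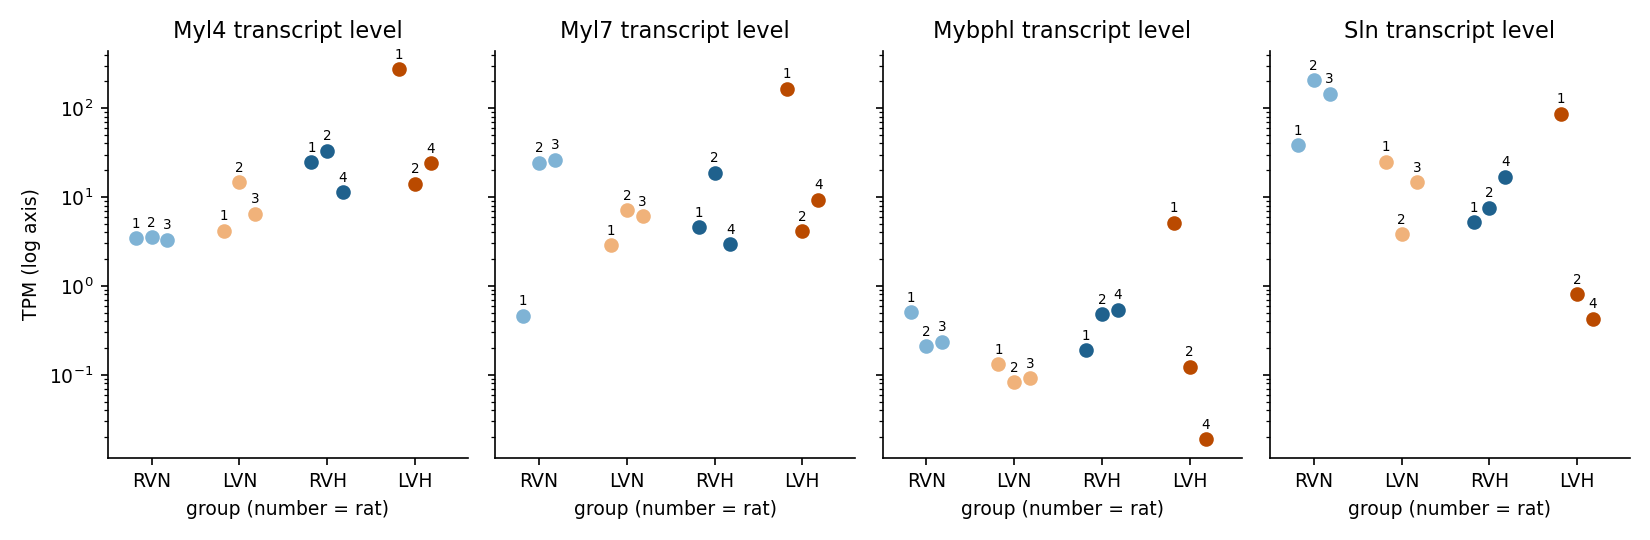
Transcript level (TPM, log axis) of the atrial members Myl4, Myl7 and Mybphl and of the atrial marker Sln in each library by group, with the rat number beside each point. LVH replicate 1 is the highest library for the 3 members (273, 165 and 5.11 TPM), and RVN replicates 2 and 3 are high in Myl7 and Sln but at 3.50 and 3.29 TPM in Myl4.

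Markers of other cells were read in the comparison in which Myh6 fell, where 15% of all genes were called. The summed level of 8 macrophage markers was 89.9 to 122 TPM in RVN and 147 to 258 TPM in RVH, with 4 of 8 called higher. That of 7 fibroblast markers was 832 to 1014 TPM in RVN and 896 to 1966 TPM in RVH, with 2 of 7 called higher. Of 7 endothelial markers 1 was called higher and 1 lower, with a median fold change of 0.20. Of 8 smooth muscle and pericyte markers 0 were called, with a median of 0.04. The sum of 12 other cardiac myocyte genes was 31302 to 34167 TPM in RVN and 27822 to 31413 TPM in RVH, and 2 of 12 were called lower, the calcium pump gene Atp2a2 (-0.86 ± 0.18, SE) and the muscle creatine kinase gene Ckm (-0.58 ± 0.17, SE). The median fold change of these 12 genes was -0.39, against -1.43 for Myh6. The part of cell composition in the change of Myh6 was not tested.

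**Figure D4:**
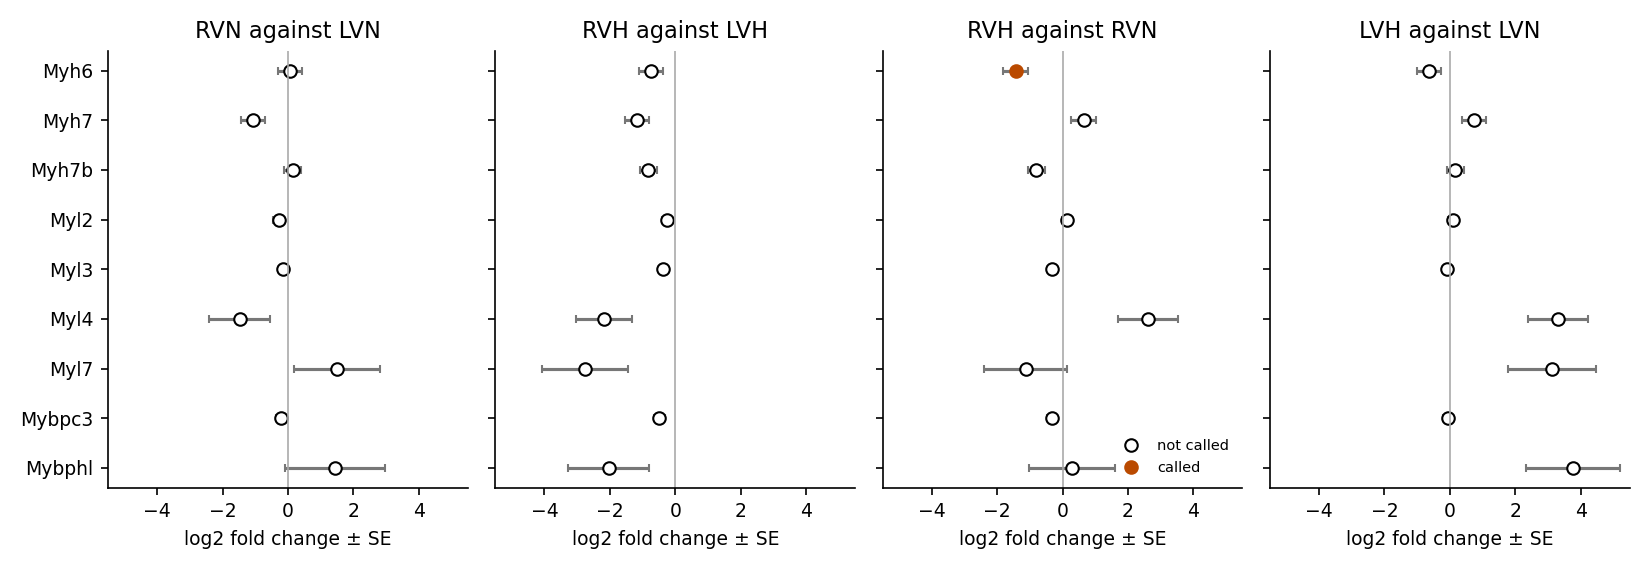
Log2 fold change ± SE of the 9 members in the 4 comparisons of groups, from edgeR's quasi-likelihood test, with filled points for called members. Myh6 in RVH against RVN is the 1 called value, and the atrial members Myl4, Myl7 and Mybphl carry the widest errors (SE 0.86 to 1.53).

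The median fold change of the 9 members was -0.15 in RVN against LVN, -0.82 in RVH against LVH, -0.31 in RVH against RVN and 0.16 in LVH against LVN, with a median of 0.01 or nearer 0 for all genes in each. Comparisons that use the same group share its libraries. By TMM-scaled level the groups did not overlap for 5 members in RVN against LVN (18.7% of all genes), 2 in RVH against LVH (17.8%), 4 in RVH against RVN (38.5%) and 2 in LVH against LVN (21.5%). These counts depend on the scaling. By TPM, Myl2 and Myl3 overlapped in RVN against LVN and Myl4 overlapped in LVH against LVN. Conversely, Myl2 in RVH against RVN and Myl3 in RVH against LVH did not overlap by TPM, although they did by TMM-scaled level.

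Of 8 other thick filament genes tested, 2 were higher and 3 lower in RVH against RVN, where 15% of all genes were called, and their median fold change was -0.51. Myom2 and Myom1, which crosslink thick filaments at the M-band, fell by 1.04 and 0.48 on the log2 scale. Mybpc2, the fast skeletal form of the binding protein, rose by 1.75 ± 0.23 (SE). Its level was 0.502 to 0.577 TPM in RVN and 1.33 to 2.52 TPM in RVH, and it was also called higher in LVH against LVN (1.38 ± 0.21, SE). The other gene called higher was Myl1, an essential light chain of fast skeletal and embryonic muscle, at 0.687 to 1.93 TPM in RVN and 4.02 to 14.2 TPM in RVH. Embryonic Myh3 stayed at or below 1.13 TPM and the perinatal Myh8 at or below 0.00907 TPM in every library.

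Of 13 genes for the assembly, phosphorylation and turnover of myosin, 1 rose and 4 fell in RVH against RVN, with a median of -0.23. In that comparison 15% of all genes were called. The chaperone gene Hsp90aa1 rose by 1.06 ± 0.19 (SE). Mylk3, the cardiac kinase of the regulatory light chain, fell by 0.73, Fbxo32, a muscle ubiquitin ligase, by 0.89, the kinase subunit Prkaca by 0.35 and Smyd1, which assists myosin assembly, by 0.59 on the log2 scale. In LVH against LVN, where 1.37% of all genes were called, 1 rose (Hsp90aa1) and 1 fell (Fbxo32).

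Thyroid hormone is the classical inducer of Myh6 and repressor of Myh7. Of 12 tested genes of its axis, 0 rose and 3 fell in RVH against RVN, namely the receptor partner Rxra (-0.76 ± 0.22, SE) and the cofactors Ncor1 (-0.48 ± 0.14, SE) and Ncoa1 (-0.38 ± 0.09, SE), with a median of -0.43 for the list. Of 26 tested genes listed as regulators of the heavy chain genes, 1 rose and 4 fell, with a median of -0.17. Foxm1 rose by 1.70 ± 0.37 (SE) at a low level, 0.355 to 0.515 TPM in RVN and 1.34 to 1.87 TPM in RVH. The repressor Purb was among those that fell, at -0.51 ± 0.12 (SE). Whether the listed genes acted on the heavy chain genes here was not tested. Neither list had a called gene in the other comparisons of groups. For these lists together the calls in RVH against RVN stand beside the 15% of all genes called there.

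Among thin filament genes and other markers of the fetal programme, 1 of 9 rose and 1 fell in RVH against RVN. The median was 0.08, and 15% of all genes were called in that comparison. Nppb, the B-type natriuretic peptide gene, rose by 1.58 ± 0.43 (SE), and Tnnt2, cardiac troponin T, fell by 0.42 on the log2 scale. Nppb was also called lower in RVH than in LVH (-2.68 ± 0.45, SE), the ordering of the ventricles also seen for Myh7.

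Nppb was among the 5 genes whose level was most like that of Myh7 over the 12 libraries (Pearson r = 0.91), with Ddc at 0.94, Ehbp1 at 0.91, Ankrd23 at 0.91 and Slc35f5 at 0.90. For Myh6 the 5 most alike were Myo10, Acacb, Fry, Bckdha and Sema3g, each with r = 0.96. The r of Myh6 with Myh7 was -0.24, so their levels were not mirror images. For Myl4 they were Plat (0.90), App (0.90), Slc10a3 (0.89), Srek1 (0.89) and Myh10 (0.88), the last a non-muscle heavy chain. Those of Myl7 lay at 0.75 to 0.84 and dropped to between 0.21 and 0.67 without LVH replicate 1 and RVN replicate 1. These correlations describe 12 libraries that share the same 4 groups and 6 hearts.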

How the data were processed

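RNA of the ventricular free walls of 6 rats was made into stranded polyadenylated libraries and sequenced as single reads. The authors checked reads with FastQC, quantified transcripts against an Ensembl transcriptome (Rnor_6.0) with kallisto 0.43.1 and summed them to genes with tximport. The deposited TPM values and the deposited estimated counts differ within a library only by a constant, so counts hold no further length information and both are shares of a library's total. Of 23553 entries, 27 bore a number instead of a symbol (0.0408% to 0.0621% of TPM) and were left out.

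Estimated counts were rounded to whole numbers, filtered with filterByExpr, scaled by TMM (factors 0.8529 to 1.206) and tested with edgeR 4.0.16 (R 4.3.3) as 4 group means with 8 residual degrees of freedom. Each SE was obtained from the log2 fold change and the F statistic. Shares were tested with exact tests (scipy 1.17.1). The alternatives were RLE or no TMM scaling, other filters, the likelihood ratio test, DESeq2 1.42.0, limma 3.58.1 on log2(TPM + 1) and log2(TPM + 0.1), the 6 libraries of a comparison alone, replicate blocks and each library left out. The numbers pair RV and LV because they come from the same rat. Residuals correlated at r = 0.037 to 0.213 within a heart and at most 0.042 between rats. Replicates are separate rats. The exposure was read from the codes CH (taken as hypoxia) and NT (taken as normoxia) in the library names.

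The 9 members and the 15 other lists were chosen with earlier results of these data known. Named were the members, up to 4 called genes per list with the smallest adjusted p in any comparison, atrial genes read beside a member, and the 5 most alike genes among those averaging at least 1 in log2 CPM. Smyd1, Myl1, Myh3 and Myh8 were named after their values were seen. Of 165 other list genes, 156 were found by symbol and the rest, Ttn among them, were not analysed here. The values of 1 called list gene are not reported here. In simulated data for RVH against RVN, 56 of 67 genes changed 4-fold and 35 of 67 changed 2-fold were recovered.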

Additional observations from a re-analysis of the deposited data

How the results depend on the processing

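Of the counts of called members, those for RVN against LVN (0 of 9) and for the difference between the hypoxia effects (0 of 9) kept their value in every alternative run. The count for RVH against LVH was 2 with DESeq2. That for RVH against RVN was 3 with the likelihood ratio test, DESeq2, or the 6 libraries alone (Myh6, Myh7b and Myl4), 0 with limma on log2(TPM + 0.1), and 0 to 3 with 1 library left out. That for LVH against LVN was 1 with the likelihood ratio test and with DESeq2 (Myl4). The share of all genes called under each alternative is not given here, so these counts have no background beside them. The adjusted p of Myh6 in RVH against RVN ran from 0.00263 to 0.115 over 16 alternatives, with 10 calls. The replicate block by rat changed no call (0 of 9 members in RVN against LVN, in RVH against LVH and for the difference between the hypoxia effects), and under it that difference turned to 0.12 for Myh7 and 0.06 for Myl4. The replicate block by number joins different rats, and with it the count for RVH against RVN was 3 (Mybpc3, Myh6 and Myh7b) and Myh7b in LVH against LVN was -0.09. Library totals and limma gave a positive sign to Myl3 in RVN against LVN (0.03) and in LVH against LVN (0.05), and to Mybpc3 in LVH against LVN (0.10 and 0.09), and limma to Myh7 for the difference (0.08). The cause was not tested.

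With 1 library left out, signs also turned for log2 fold changes that were not called. In RVN against LVN the ranges were -0.12 to 0.49 for Myh6 and -0.09 to 0.44 for Myh7b. In RVH against LVH they were -2.67 to 0.03 for Myl4, -3.89 to 0.13 for Myl7 and -2.63 to 2.36 for Mybphl, each turned by LVH replicate 1. In RVH against RVN the range was -0.11 to 0.84 for Mybphl. In LVH against LVN they were -0.07 to 0.46 for Myh7b, -0.11 to 0.24 for Myl2, -0.18 to 0.02 for Myl3, -0.20 to 0.06 for Mybpc3 and -0.62 to 4.35 for Mybphl. For the difference between the hypoxia effects they were -0.46 to 0.23 for Myh7, -0.10 to 0.24 for Myl2, -1.35 to 1.52 for Myl4 and -4.06 to 0.92 for Mybphl. For the shares they were -1.28 to 0.0358 (Myl7, RVH minus LVH), -0.429 to 0.174 (Myl7, over hearts) and -1.42 to 0.103 (Myl4, RVH minus LVH) percentage points. The Myh7 share kept its direction in all 5 of its comparisons, at 25.7 to 38.3 percentage points for RVH minus RVN, 14.2 to 25.0 for LVH minus LVN, -24.2 to -11.2 for RVN minus LVN, -12.7 to -1.07 for RVH minus LVH and -14.0 to -9.07 over hearts.

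The exact tests of 3 libraries against 3 could not reach 0.05. Mybphl had too few counts to rank libraries other than LVH replicate 1, and it was not tested under the stricter filters.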

Other observations

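Among genes of the non-muscle and smooth muscle myosins, the light chains Myl6 and Myl9 were called in RVH against RVN. Myl6, the essential light chain of these myosins, was at 371, 374 and 342 TPM in RVN and 786, 953 and 659 TPM in RVH, and it rose by 1.01 ± 0.10 (SE, adjusted p of 0.000962 by edgeR's quasi-likelihood test). In the LV it was at 310, 333 and 288 TPM in LVN and 669, 533 and 548 TPM in LVH, a rise of 0.75 ± 0.10 (SE, adjusted p of 0.00818 by the same test). Myl9, the smooth muscle regulatory light chain, rose by 1.12 ± 0.23 (SE) in RVH against RVN and was not called in LVH against LVN. Of the 9 tested genes of this kind, 2 were called higher and 0 lower in RVH against RVN, where 15% of all genes were called, and the median fold change of the list was 0.09.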
